A study of Mus musculus with 7 samples.

Results

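Tubulins are the building blocks of microtubules, kinesins and dynein are the motors that walk along them, and the structural microtubule-associated proteins bundle and stabilise them. All 3 kinds of gene were examined in bulk RNA-seq libraries labelled as medial prefrontal neurons with projections to the lateral habenula (mPFC-LHB in the labels). The mice were C57BL/6J, the brains were labelled P90, and the groups were noCRS (n = 3 libraries) and CRS (n = 4 libraries). CRS is not spelled out in the labels, and the title of the series speaks of chronic stress. No other allele, agent or treatment is named for either group. The way the neurons were marked and isolated was not given in the sources used here. Genes were taken by symbol: the alpha-, beta- and gamma-tubulins, the Kif kinesin heavy chains, the Klc light chains, the Dync and Dynl dynein chains, and Map1a, Map1b, Map2, Map4, Map6, Mapt, Dcx and Dclk1, leaving out symbols with a -ps ending. This gave 84 of the 55367 genes in the table, and 74 of them had enough counts to be tested.

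A microtubule is a hollow polymer of alpha- and beta-tubulin pairs, laid down from sites that hold gamma-tubulin, and it has a fast-growing plus end and a minus end. In an axon the plus ends point away from the cell body, so most kinesins carry vesicles, mitochondria and other cargo outwards while cytoplasmic dynein, with its partner complex dynactin, carries cargo back. The proteins Map2 and tau (the product of Mapt) are classical markers of dendrites and axons, Map1b and doublecortin (Dcx) are best known from growing neurites, and the beta-tubulin encoded by Tubb3 is a standard neuronal marker.

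Library totals ran from 28677703 to 39965667 counts. Values below are CPM, a gene's counts scaled to a fixed library total, after TMM normalisation, and 3 counts in 1 library, the floor of detection used here, were worth 0.0724 to 0.0990 CPM. Floors cover counting error only. Libraries of 1 group differed widely in the level of the same gene, with a common biological coefficient of variation of 0.919. CRS replicate 2 stood alone at one end of the first principal component, an axis with 30.4% of the variance. All 8 pan-neuronal markers had every CRS library above every noCRS library, 4 of them rose by the edgeR test used below, and their summed level was 269 to 405 CPM in noCRS and 2932 to 4286 CPM in CRS. The 8 excitatory cortical neuron markers summed to 20.1 to 39.9 CPM in noCRS and 496 to 747 CPM in CRS. Their defining gene Slc17a7 was at 0 in 2 of the 3 noCRS libraries, while Nrgn was at 12.1 to 14.7 CPM in noCRS. Of the 8, 7 had every CRS library above every noCRS library. Camk2a overlapped, at 2.83 to 13.5 CPM in noCRS and 11.1 to 25.7 CPM in CRS. The 8 oligodendrocyte markers summed to more than the pan-neuronal markers in every library, 32002 to 36987 CPM in noCRS and 26349 to 51907 CPM in CRS. Oligodendrocyte precursor markers summed to 2326 to 2596 CPM in noCRS and 1173 to 1597 CPM in CRS, and 5 of the 8 fell. For 7 of the 8 every CRS library was below every noCRS library. Pdgfra, the most abundant in sum, overlapped, at 712 to 1173 CPM in noCRS and 498 to 975 CPM in CRS. Astrocyte markers summed to 5754 to 9256 CPM and 3400 to 8548 CPM, and microglial markers to 89.4 to 133 CPM and 84.4 to 124 CPM. Endothelial and mural markers summed to 72.3 to 236 CPM and 141 to 639 CPM. Inhibitory neuron markers summed to 62.9 to 65.6 CPM in noCRS and 208 to 893 CPM in CRS. The highest sum was in CRS replicate 2, with Sst at 398 CPM and Npy at 218 CPM. Slc32a1 and Lhx6 were at 0 in noCRS and hardly detected in CRS. In CRS replicates 1 to 4 Slc32a1 was at 0, 0, 0.132 and 0.104 CPM and Lhx6 at 0, 14.4, 0 and 0 CPM. Pvalb and Gad2 overlapped between the groups. The summed neuronal markers were thus higher and the summed precursor markers lower in CRS. Of the 74 tested genes described below 7 were called higher in CRS (9.46%, against 2.07% of all genes), and most were not called. The part of the markers in each result was not tested. The summed oligodendrocyte, astrocyte and microglial markers overlapped between the groups. The label of projection neurons is kept as a label only, since in noCRS the excitatory markers were low in sum beside abundant oligodendrocyte markers. In bulk RNA, fewer cells of a type and less RNA per cell cannot be told apart. Whether different libraries are different animals is not stated in the labels, and the p-values below therefore reflect library-to-library spread that may be technical.

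Of the 74 genes tested, 7 were higher in CRS than in noCRS (9.46%) by edgeR's quasi-likelihood test at a Benjamini-Hochberg adjusted p under 0.05, against 2.07% of all 17833 genes tested. They were the dynein chains Dync1i1, Dync1li1 and Dynlt3, the kinesin light chain Klc1, the kinesin Kif21a, the structural protein Map1b and the beta-tubulin Tubb2a. By the same edgeR test 0 of the 74 fell, against 0.23% of all genes, while 2 had an unadjusted p under 0.05 in the lower direction (against 3.91% of all genes), DESeq2 called 2 lower and limma-voom called 0 lower. The log2 fold changes were spread to both sides, with 41 above and 33 below 0 and a median of 0.16, beside a median of -0.02 for all genes tested. Scaling by library totals alone moved the median of all genes by -0.156 to -0.172 and that of the 74 by -0.167 to -0.003, so the sign of the members' median depended on the scaling. Every CRS library lay above every noCRS library for 17 of the 74 (23.0%), against 10.1% of all genes. At an unadjusted p under 0.05 there were 22 of the 74 (29.7%), against 13.6% of all genes. Groups lay apart in the other direction for 3 of the 74, Kif21b, Kif20b and Dynlt1b (4.05%), against 6.74% of all genes. DESeq2 called 17 of the members, 15 of them higher, against 8.96% of all genes in either direction, and limma-voom called 9, all higher, against 3.58% of all genes. The edgeR count of 7 dropped when single libraries were left out, to 3 on removal of noCRS replicate 2 or of CRS replicate 3 or 4, and to 4 on removal of noCRS replicate 3.

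Summed over all 84 genes, the level ran from 6100 to 6123 CPM in noCRS and from 8101 to 9763 CPM in CRS. The tubulin sum overlapped between the groups, at 2668 to 2885 CPM in noCRS and 2612 to 4605 CPM in CRS. The sums of kinesins (1127 to 1365 and 1613 to 1692 CPM) and dyneins (1079 to 1178 and 1685 to 2063 CPM) did not overlap. That of the structural proteins did not overlap either (911 to 1110 and 1734 to 2400 CPM), and Map1b alone had means of 312 and 1223 CPM.

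**Figure D1:**
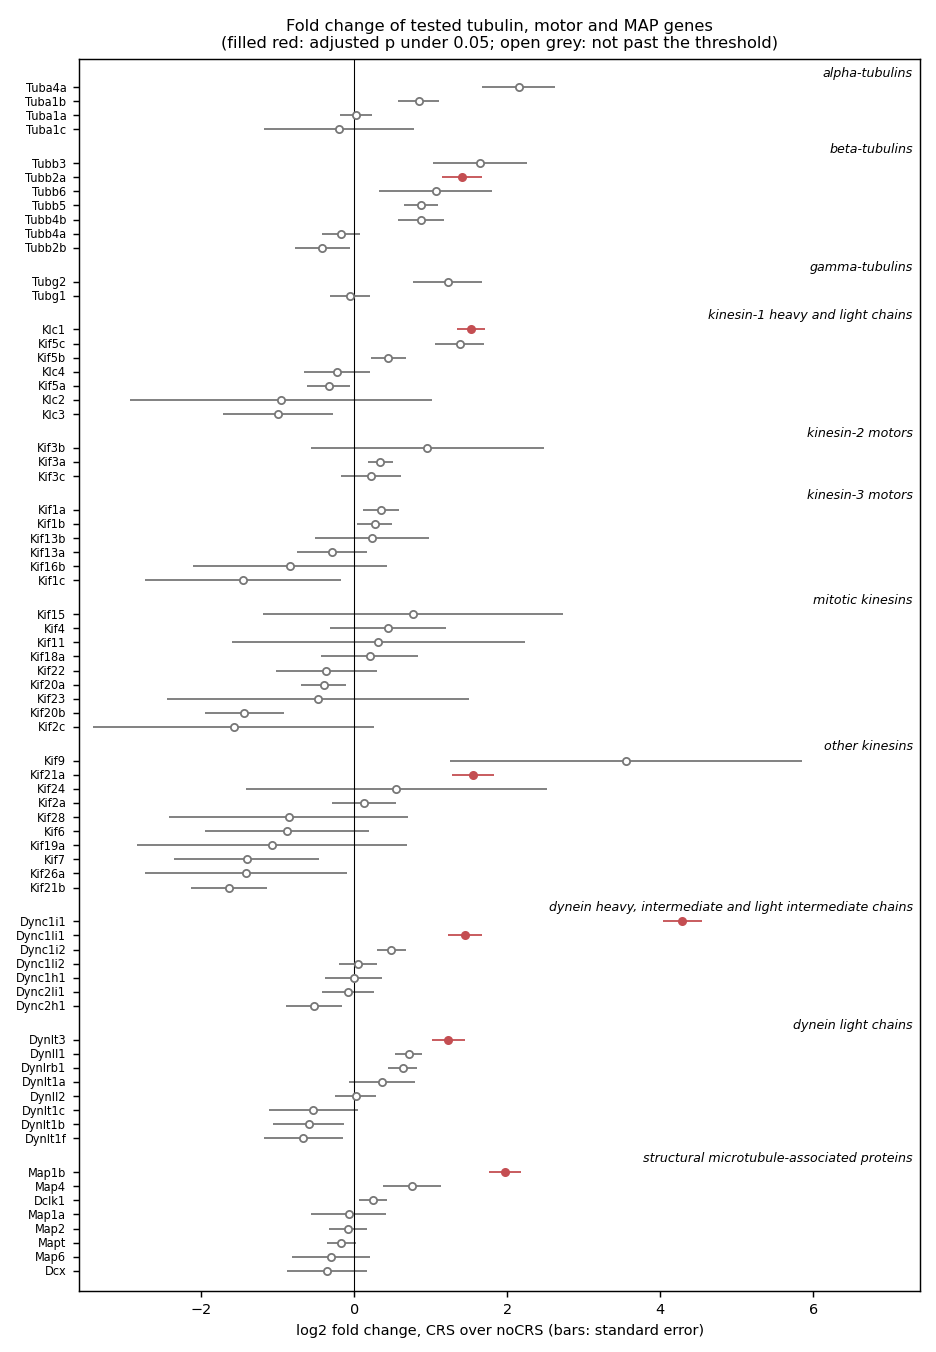
The log2 fold change of CRS over noCRS is on the x axis, with its standard error as a bar, for each tested gene grouped by role. Tuba8, Kif17 and Dynlrb2, at 0 counts in noCRS, are left out; the 7 filled red points passed an adjusted p of 0.05, with Dync1i1 farthest right at 4.29, and the weakly expressed kinesins have the widest bars.

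The 10 genes with too few counts to test were Tubb1, Tuba3a, Tuba3b, Kif2b, Kif12, Kif14, Kif18b, Kif26b, Kif27 and Kif16bos, an antisense transcript that the symbol pattern also takes in. Of these, Tubb1, Kif2b, Kif12 and Kif27 had 0 counts in all 7 libraries. Tuba8, Kif17 and Dynlrb2 were at 0 in all noCRS libraries and entered the test only through CRS. Their p-values are therefore given as description and carry no weight as evidence. All of them are included above among the genes at an unadjusted p under 0.05 and among the DESeq2 calls. Tuba8 and Kif17 are also included among the genes without overlap.

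The alpha-tubulin level was set mostly by Tuba1a, the main alpha-tubulin gene of neurons, in both groups. Tuba1a measured 843, 971 and 858 CPM in noCRS replicates 1 to 3 and 1259.8, 695, 826 and 830.3 CPM in CRS replicates 1 to 4. The groups overlapped, with CRS replicate 1 highest and CRS replicate 2 lowest of all 7 libraries. The edgeR log2 fold change was 0.02 ± 0.21 (standard error) with an adjusted p of 0.990, and the 95% interval of the fold ran from 0.726 to 1.42. Scaled by library totals alone the value was -0.13, and by RLE factors -0.01, so its sign was not fixed. Tuba4a, an alpha-tubulin without the encoded C-terminal tyrosine of most other forms, measured 43.9, 13.3 and 48.8 CPM in noCRS and 191, 156, 88.4 and 192 CPM in CRS. Every CRS library was above every noCRS library. Its edgeR log2 fold change of 2.15 ± 0.48 had an adjusted p of 0.0619, and DESeq2 (adjusted p = 0.000358) and limma-voom (adjusted p = 0.0432) placed it past the threshold. Tuba4a shares 37.3% of its exon length with Stk16 and the libraries do not mark strand, so reads of these genes cannot be told apart there.

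Tuba1b, a widely expressed alpha-tubulin, measured 76.6, 137 and 118 CPM in noCRS and 275, 166, 160.1 and 190.1 CPM in CRS, without overlap. It had a log2 fold change of 0.84 ± 0.27 and an edgeR adjusted p of 0.189. Coding sequences of Tuba1a and Tuba1b are 98.3% identical, and 75.5% and 75.1% of their 50-base stretches also occur in transcripts of other genes, so reads may have been split between them. Tuba1a also shares 26.2% of its exon length with Gm49450, and Tuba1b 27.4% with Gm41396 and Gm49450. Tuba8 had 0 counts in noCRS and 11.8, 0.374, 3.99 and 11.1 CPM in CRS. The CRS mean of 6.83 CPM was at least 239-fold above the noCRS group floor of 0.0286 CPM, with an edgeR adjusted p of 0.0637. The p-values of Tuba8 are description only, since it entered the test only through CRS. It was named here after its values were seen. It shares 16.3% of its exon length with Gm15856, and it passed the threshold by DESeq2 (adjusted p = 4.60e-07) and by edgeR when CRS replicate 2, its lowest CRS library, was left out (adjusted p = 0.0356). Tuba1c had means of 3.23 and 2.82 CPM. Of the 5 alpha-tubulins tested edgeR called 0, with 3 at an unadjusted p under 0.05, against 13.6% of all genes. DESeq2 called 2 of the 5, against 8.96% of all genes, and limma-voom called 1, against 3.58%. Tuba8 is included among the 3 at an unadjusted p under 0.05 and among the 2 DESeq2 calls, where it carries no weight as evidence.

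Among the beta-tubulins, Tubb2a rose while Tubb4a and Tubb2b did not pass the test. The beta-tubulin isotypes differ most at their C-terminal tails, which face outwards from the microtubule and are read by motors and modifying enzymes. The last 60 coding bases, stop codon included, are shown to compare these tails between the genes. They are from GENCODE M21 on GRCm38, 5′ to 3′ on the coding strand. Capitals mark bases that differ from Tubb2a in a global alignment or have no partner in it, and a base missing relative to Tubb2a leaves no mark.
Tubb2a: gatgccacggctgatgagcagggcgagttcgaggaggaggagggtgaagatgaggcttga
Tubb2b: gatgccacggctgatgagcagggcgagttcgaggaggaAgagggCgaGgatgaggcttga
Tubb3: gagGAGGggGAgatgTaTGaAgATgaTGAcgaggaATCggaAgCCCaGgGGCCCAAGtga
Tubb4a: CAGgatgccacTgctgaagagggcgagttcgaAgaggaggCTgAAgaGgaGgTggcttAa
Tubb4b: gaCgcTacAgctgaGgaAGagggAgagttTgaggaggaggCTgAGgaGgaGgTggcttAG
Tubb5: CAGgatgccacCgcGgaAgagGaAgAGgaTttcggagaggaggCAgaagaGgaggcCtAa
These stretches lie at chr13:34074468-34074527 (minus strand), chr13:34127471-34127530 (minus), chr8:123421623-123421682 (plus), chr17:57080690-57080749 (minus), chr2:25222308-25222367 (minus) and chr17:35834982-35835041 (minus), in that order. Tubb2b differs from Tubb2a at 3 of these bases, none of which changes the encoded amino acid, so this pair has the same tail. Over the whole coding sequence these genes are 96.5% identical. Tubb3 differs at 31 of the 60, and its coding sequence is 83.6% identical to that of Tubb2a.

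Tubb2a (chr13:34074274-34078007, minus strand), a major beta-tubulin of brain, measured 190.1, 116 and 117 CPM in noCRS replicates 1 to 3 and 506, 360.2, 283 and 349 CPM in CRS replicates 1 to 4. All 4 CRS libraries were above all 3 noCRS libraries, with CRS replicate 1 highest. The mean went from 141 ± 42.5 CPM (SD, n = 3) to 375 ± 94.0 CPM (SD, n = 4), a log2 fold change of 1.41 ± 0.27 with an edgeR adjusted p of 0.0345. The call rested on most of the libraries: it was lost when any 1 of them other than noCRS replicate 1 was left out (edgeR adjusted p up to 0.152) and when libraries were scaled by their totals alone (0.0607). Of the 50-base stretches of its transcripts 49.6% also occur in other genes, most of them in Tubb2b. Tubb2b, the nearest relative, measured 26.2, 42.5 and 33.1 CPM in noCRS and 26.3, 16.9, 20.7 and 37.6 CPM in CRS. The groups overlapped, and the log2 fold change was -0.42 ± 0.36 (edgeR adjusted p = 0.764).

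Tubb4a, the beta-tubulin best known from myelinating oligodendrocytes and also present in neurons, was the most abundant beta-tubulin per length of exon in both groups. Tubb4a measured 1144, 1015 and 1279.9 CPM in noCRS and 1394, 658, 1136 and 871 CPM in CRS. The groups overlapped, with the highest and the lowest value both in CRS. Its log2 fold change was -0.18 ± 0.25 (edgeR adjusted p = 0.878), with a 95% interval of 0.597 to 1.31 for the fold. Tubb3, the neuronal marker, measured 14.1, 18.5 and 33.5 CPM in noCRS and 142, 20.9, 55.0 and 58.2 CPM in CRS. In CRS 3 of the 4 libraries were above all noCRS libraries and replicate 2 was within their range. The log2 fold change of 1.64 ± 0.62 had an edgeR adjusted p of 0.265, and the CRS mean of 68.9 CPM was 44.7 CPM without CRS replicate 1.

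Tubb5 and Tubb4b, expressed in most cell types, gave higher values in every CRS library without passing the edgeR test. Tubb5 measured 156, 197 and 191 CPM in noCRS and 393, 301, 230.2 and 404 CPM in CRS (log2 fold change 0.87 ± 0.23, edgeR adjusted p = 0.103), and DESeq2 placed it past the threshold (adjusted p = 0.00847). Tubb4b measured 83.0, 95.6 and 107 CPM in noCRS and 274, 117, 139.9 and 168 CPM in CRS (0.87 ± 0.30, edgeR adjusted p = 0.209). For both genes the lowest CRS library stood closest to the noCRS range. Tubb6 had group means of 7.34 and 15.3 CPM with overlapping libraries (edgeR adjusted p = 0.660). The gamma-tubulins, which seed new microtubules, gave 0 calls by edgeR, DESeq2 and limma-voom. Of the 2, 1 had an unadjusted p under 0.05, against 13.6% of all genes. That was Tubg2, at 16.4, 17.5 and 8.90 CPM in noCRS and 46.5, 16.2, 30.8 and 39.5 CPM in CRS (log2 fold change 1.22 ± 0.46, edgeR adjusted p = 0.264). Tubg1, the more abundant of the pair in both groups, had means of 64.6 ± 11.9 CPM and 62.1 ± 17.6 CPM.

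Kinesin-1 carries cargo outwards along axons and is built from heavy chains (Kif5a, Kif5b, Kif5c) and cargo-binding light chains (Klc1 to Klc4). Its light chain Klc1 rose. Klc1 (chr12:111758849-111807844, plus strand) measured 116, 96.8 and 115 CPM in noCRS and 387, 296, 261 and 313 CPM in CRS. The lowest CRS library exceeded the highest noCRS library by a wide margin. Means were 109 ± 10.9 CPM (SD, n = 3) and 314 ± 53.3 CPM (SD, n = 4), a log2 fold change of 1.52 ± 0.18 with an edgeR adjusted p of 0.00641, and the call held without each single library (adjusted p up to 0.0418). The other light chains were less abundant and did not pass, with means of 12.3 and 6.15 CPM for Klc3, 19.8 and 16.9 CPM for Klc4 and 1.38 and 0.71 CPM for Klc2 in noCRS and CRS. Klc3 shares 28.1% of its exon length with Ercc2.

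Kif5c, a heavy chain enriched in neurons, measured 33.3, 36.6 and 15.0 CPM in noCRS and 79.3, 66.0, 71.3 and 77.8 CPM in CRS. The groups did not overlap, and the edgeR log2 fold change of 1.38 ± 0.32 had an adjusted p of 0.0751. DESeq2 (adjusted p = 0.00157) and limma-voom (adjusted p = 0.0378) placed Kif5c past the threshold. Kif5a, the other neuronal heavy chain, measured 43.0, 52.8 and 44.5 CPM in noCRS and 52.5, 32.5, 27.1 and 35.9 CPM in CRS. In 3 of the 4 CRS libraries it was below all noCRS libraries, and the log2 fold change was -0.34 ± 0.28 (edgeR adjusted p = 0.756). Kif5b, expressed in most cells, measured 117, 107 and 132 CPM in noCRS and 111, 206, 159 and 170.0 CPM in CRS (0.45 ± 0.22, edgeR adjusted p = 0.451). The neuronal heavy chains Kif5a and Kif5c thus had fold changes of opposite sign, and the difference between them was not tested.

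The kinesin-2 motors drive transport in cilia and along axons. Of the 4 tested edgeR and limma-voom each called 0. At an unadjusted p under 0.05 there was 1 (25.0%, against 13.6% of all genes), and DESeq2 called the same gene. That gene was Kif17, a dendritic motor known for carrying glutamate receptor vesicles, at 0 counts in all noCRS libraries and 6.31, 4.90, 0.132 and 3.0 CPM in CRS. The CRS mean was at least 126-fold above the noCRS group floor, CRS replicate 3 had 4 counts, and the adjusted p was 0.0963 by edgeR and 4.49e-05 by DESeq2. Since Kif17 entered the test only through CRS, these p-values are description only. Kif3a, the main kinesin-2 heavy chain here, measured 171, 186 and 145 CPM in noCRS and 182, 197, 236 and 231 CPM in CRS (log2 fold change 0.34 ± 0.17, edgeR adjusted p = 0.439). Its groups overlapped. Kif3c had means of 30.8 and 35.8 CPM, and Kif3b, at 0 in noCRS replicate 3, had means of 4.01 and 7.78 CPM. Kif3c shares 40.7% of its exon length with 1110002L01Rik and Gm48512.

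Kinesin-3 motors carry synaptic vesicle precursors and other membranous cargo, and none of the 6 tested passed in edgeR, DESeq2 or limma-voom or had an unadjusted p under 0.05. Kif1a, the main carrier of synaptic vesicle precursors, measured 251, 171 and 169.8 CPM in noCRS and 282, 318, 223 and 183 CPM in CRS. The groups overlapped, with a log2 fold change of 0.35 ± 0.24 (edgeR adjusted p = 0.652). Kif1b, a carrier of mitochondria and vesicle precursors, measured 271, 174 and 150.1 CPM in noCRS and 253, 209.7, 278 and 213 CPM in CRS (0.26 ± 0.23, edgeR adjusted p = 0.763). Kif13a, Kif13b, Kif16b and Kif1c had group means between 2.53 and 30.3 CPM and overlapping libraries.

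Outside these classes, 2 close relatives of the kinesin-4 family had fold changes of opposite sign. The product of Kif21a restrains microtubule growth in axons. Its exons in the deposited table span chr15:90933276-90972715 (minus strand). Its promoter window lies outside that span, at chr15:91049902-91050201, so the span may not hold the whole gene. Kif21a measured 37.8, 24.7 and 51.0 CPM in noCRS and 98.7, 126, 98.1 and 119 CPM in CRS. All CRS libraries were above all noCRS libraries. Means were 37.8 ± 13.2 CPM (SD, n = 3) and 111 ± 14.3 CPM (SD, n = 4), a log2 fold change of 1.55 ± 0.27 with an edgeR adjusted p of 0.0289. The call was lost when any 1 library other than noCRS replicate 3 was left out (adjusted p up to 0.108). Kif21b, its paralog, measured 28.0, 27.8 and 16.7 CPM in noCRS and 3.62, 8.14, 9.38 and 9.82 CPM in CRS. Here all CRS libraries were below all noCRS libraries, with a log2 fold change of -1.64 ± 0.50 and an edgeR adjusted p of 0.167, and DESeq2 placed it lower at an adjusted p of 0.00446. The difference between the paralogs was not tested. Kif21b was named after its values were seen.

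Kif2a, which takes microtubule ends apart, had means of 26.0 and 28.4 CPM. The other kinesins outside the named classes (Kif6, Kif7, Kif9, Kif19a, Kif24, Kif26a and Kif28) had group means of 0.214 to 7.07 CPM, and none was called. Mitotic kinesins, which work in the spindle of dividing cells, were tested at 9 of 11, and edgeR and limma-voom each called 0. At an unadjusted p under 0.05 there was 1 (11.1%, against 13.6% of all genes), and DESeq2 called the same gene. That gene was Kif20b, at 22.2, 14.5 and 13.6 CPM in noCRS and 5.31, 7.92, 3.99 and 7.45 CPM in CRS (log2 fold change -1.44 ± 0.52, edgeR adjusted p = 0.233). Its groups did not overlap, and DESeq2 placed it lower at an adjusted p of 0.00898. Kif2c, Kif4, Kif11, Kif15, Kif18a and Kif23 had group means of 1.43 to 14.3 CPM and overlapping libraries. Kif20a (means 44.4 and 33.7 CPM) and Kif22 (19.0 and 14.7 CPM) overlapped between groups, and Kif20a shares 29.3% of its exon length with Cdc23. Markers of proliferating cells summed to 73.3 to 98.6 CPM in noCRS and 83.7 to 141 CPM in CRS.

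Cytoplasmic dynein moves cargo towards the cell body and is built around the heavy chain Dync1h1, with intermediate chains that bind dynactin, light intermediate chains that bind cargo adaptors, and small light chains. The largest difference past the threshold was in its intermediate chain Dync1i1, the form enriched in neurons. Dync1i1 (chr6:5725639-6028039, plus strand) measured 8.68, 11.1 and 13.9 CPM in noCRS and 261, 217, 176 and 225 CPM in CRS. The lowest CRS library was far above the highest noCRS library. Means were 11.2 ± 2.62 CPM (SD, n = 3) and 219.8 ± 34.9 CPM (SD, n = 4), a log2 fold change of 4.29 ± 0.26 with an edgeR adjusted p of 0.000386. The 95% interval of the fold ran from 13.0 to 29.3, and the call held without each single library (adjusted p up to 0.00663). It shares no exon base with another gene and none of its 50-base stretches occurs in another gene. Dync1i2, the broadly expressed intermediate chain, measured 196, 179 and 166 CPM in noCRS and 210.1, 316, 276 and 207 CPM in CRS (0.48 ± 0.19, edgeR adjusted p = 0.305). Its groups did not overlap, but the gap between them was narrow.

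The light intermediate chain Dync1li1 (chr9:114688790-114724302, plus strand) measured 39.5, 29.6 and 37.8 CPM in noCRS and 76.2, 106, 93.7 and 112 CPM in CRS. All CRS libraries were above all noCRS libraries. Means were 35.6 ± 5.30 CPM (SD, n = 3) and 96.8 ± 15.6 CPM (SD, n = 4), a log2 fold change of 1.44 ± 0.22 with an edgeR adjusted p of 0.0170. Leaving out noCRS replicate 2 or 3 (adjusted p of 0.0823 and 0.0612) or CRS replicate 3 or 4 (0.0543 and 0.0561) ended the call. Its paralog Dync1li2 measured 138, 134 and 187 CPM in noCRS and 114, 129, 205 and 184 CPM in CRS, with a log2 fold change of 0.05 ± 0.25 (edgeR adjusted p = 0.973). The heavy chain Dync1h1 measured 62.9, 72.5 and 61.0 CPM in noCRS and 98.7, 33.7, 84.3 and 44.3 CPM in CRS. The CRS libraries lay on both sides of the noCRS range, and the log2 fold change was -0.01 ± 0.37 (edgeR adjusted p = 0.998, 95% interval of the fold 0.552 to 1.80). The dynein-2 chains of cilia, Dync2h1 (means 36.0 and 25.0 CPM) and Dync2li1 (27.0 and 25.5 CPM), overlapped between groups.

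Dynein light chains sit at the base of the motor. Dynlt3 (chrX:9654267-9663003, minus strand), a Tctex-type light chain, measured 129, 101 and 149.6 CPM in noCRS and 223, 369, 300.3 and 295 CPM in CRS. All CRS libraries were above all noCRS libraries. Means were 126 ± 24.5 CPM (SD, n = 3) and 297 ± 59.6 CPM (SD, n = 4), a log2 fold change of 1.23 ± 0.22 with an edgeR adjusted p of 0.0296. Leaving out any 1 of the 3 noCRS libraries or CRS replicate 3 or 4 ended the call, with adjusted p of at most 0.132. Dynll1, a light chain that also serves as a hub in other complexes, measured 134, 181 and 182 CPM in noCRS and 297, 296, 264 and 227 CPM in CRS (0.71 ± 0.18, edgeR adjusted p = 0.0954). Its groups did not overlap, and DESeq2 placed it past the threshold (adjusted p = 0.00568). Dynlrb1, a roadblock-type chain named after its values were seen, measured 143, 181 and 182 CPM in noCRS and 243, 330.4, 222 and 249 CPM in CRS (0.63 ± 0.19, edgeR adjusted p = 0.162), also without overlap and past the threshold by DESeq2 (adjusted p = 0.0396).

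Dynll2, the second LC8-type light chain, had means of 107 ± 12.3 CPM and 109 ± 38.2 CPM and a log2 fold change of 0.02 ± 0.27 (edgeR adjusted p = 0.993). Dynlrb2 had 0 counts in noCRS and 0, 4.93, 0.957 and 1.54 CPM in CRS, a mean at least 65.0-fold above the noCRS group floor (edgeR adjusted p = 0.207, DESeq2 adjusted p = 0.0249). Without CRS replicate 2 that mean of 1.86 CPM was 0.832 CPM, at least 29.1-fold above the floor. The p-values of Dynlrb2 are description only, as it entered the test only through CRS. The near-identical copies Dynlt1a, Dynlt1b, Dynlt1c and Dynlt1f had group means of 7.81 to 17.8 CPM, and 70.5% to 88.9% of their 50-base stretches occur in other genes, so the split of reads among them is uncertain.

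Among the structural microtubule-associated proteins, Map1b was the 1 of 8 that rose. Map1b (chr13:99421446-99516540, minus strand) measured 283, 373 and 281 CPM in noCRS and 1102, 1172, 1038 and 1580.3 CPM in CRS. The lowest CRS library was far above the highest noCRS library, and CRS replicate 4 was highest. Means were 312 ± 52.6 CPM (SD, n = 3) and 1223 ± 244 CPM (SD, n = 4), a log2 fold change of 1.97 ± 0.21 with an edgeR adjusted p of 0.00412. The 95% interval of the fold ran from 2.83 to 5.43, and the call held without each single library (adjusted p up to 0.0296).

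Classical neuronal microtubule proteins did not follow Map1b. Oligodendrocyte markers were abundant in every library, and which cells the reads of these genes came from was not tested. Mapt measured 179, 141 and 122 CPM in noCRS and 153, 111, 128 and 133 CPM in CRS. Map2 measured 167, 205 and 185 CPM in noCRS and 111, 153, 229.9 and 207 CPM in CRS. For both the groups overlapped: the log2 fold change was -0.17 ± 0.19 for Mapt (edgeR adjusted p = 0.834, 95% interval of the fold 0.657 to 1.20) and -0.08 ± 0.25 for Map2 (0.945, 0.633 to 1.41). Dclk1, a doublecortin-like kinase, measured 188, 211 and 192 CPM in noCRS and 207, 189.6, 247 and 291 CPM in CRS (0.24 ± 0.18, edgeR adjusted p = 0.698). Dcx measured 17.2, 32.0 and 51.5 CPM in noCRS and 16, 13.5, 42.7 and 32.6 CPM in CRS, again with overlap (edgeR adjusted p = 0.881). Map4, a broadly expressed microtubule stabiliser, measured 79.0, 76.2 and 30.0 CPM in noCRS and 108, 63.4, 126 and 118 CPM in CRS (0.75 ± 0.38, edgeR adjusted p = 0.458). Map1a and Map6, which stabilise microtubules in mature neurons, had means of 32.9 and 31.3 CPM and of 31.8 and 25.7 CPM.

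**Figure D2:**
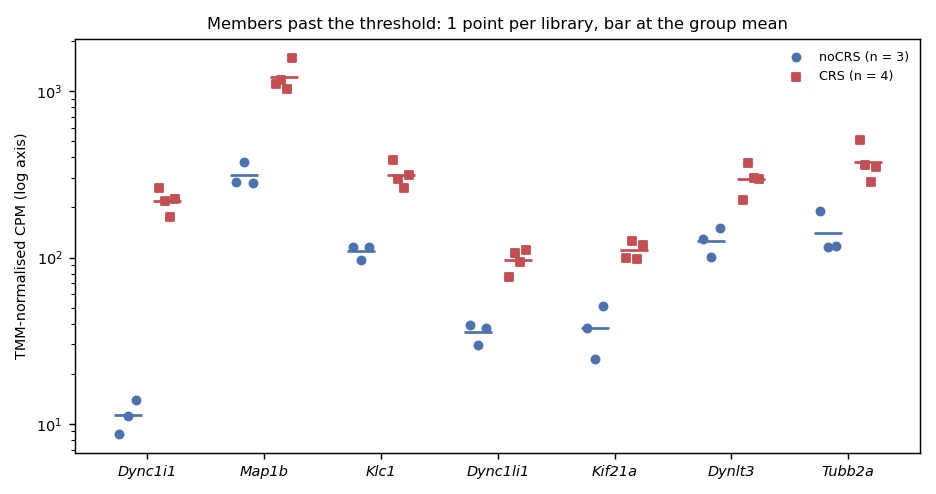
Each point is 1 library, with noCRS in blue (n = 3) and CRS in red (n = 4), on a log axis of TMM-normalised CPM for the 7 genes past the threshold, and each bar is a group mean. No CRS point reaches down to a noCRS point for any of the 7, and the gap is widest for Dync1i1, at 8.68 to 13.9 CPM in noCRS and 176 to 261 CPM in CRS.

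**Figure D3:**
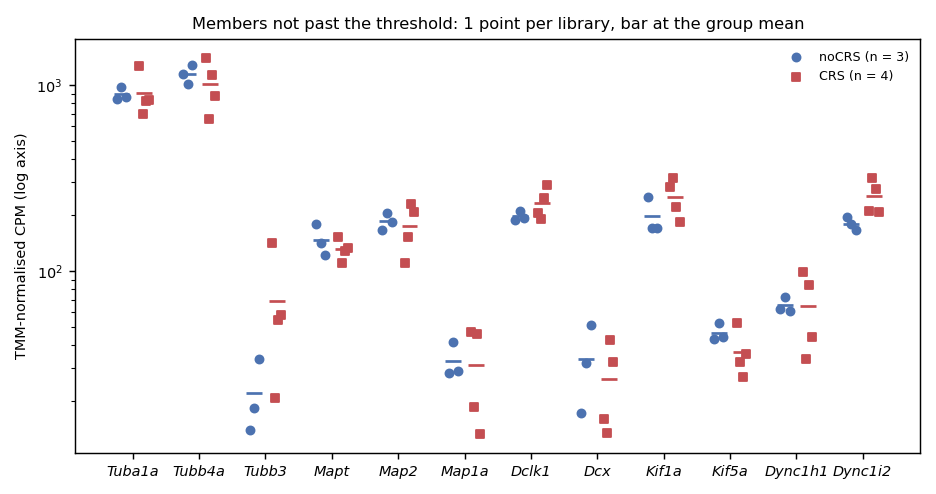
The same display, CPM on a log axis with 1 point per library and a bar at each group mean, for 12 abundant or marker genes that did not pass the threshold. The noCRS and CRS points interleave for Tuba1a, Tubb4a, Mapt and Map2, Tubb3 spreads from 20.9 to 142 CPM within CRS, and Dync1i2 shows a narrow gap.

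Related genes supply the same place in a microtubule or motor, and the composition of each family was described as a share of the family's summed CPM per kilobase of exon, with no test. Dync1i1 made up 9.33%, 12.6% and 16.2% of the dynein-1 intermediate chain level in noCRS and 74.2%, 61.5%, 59.6% and 71.6% in CRS. Per kilobase of exon the more abundant of the pair was thus Dync1i2 in every noCRS library and Dync1i1 in every CRS library. By CPM, without division by exon length, Dync1i2 was above Dync1i1 in CRS replicates 2 (316 against 217 CPM) and 3 (276 against 176 CPM). In CRS replicates 1 and 4 Dync1i1 was above Dync1i2 on that scale too. Among kinesin light chains, Klc1 averaged 56.6% in noCRS and 83.7% in CRS. Dync1li1 averaged 26.8% of the light intermediate chains in noCRS and 49.3% in CRS. Among beta-tubulins, Tubb4a averaged 70.2% ± 1.94 (SD, n = 3) and 48.9% ± 6.91 (SD, n = 4), and Tubb2a averaged 12% and 25.6%. Tuba1a held 87.7% ± 1.98 of the alpha-tubulin level in noCRS and 76.5% ± 2.87 in CRS, while Tuba4a averaged 1.75% and 6.60%. Kif5c averaged 15.5% and 29.0% of the kinesin-1 heavy chains, and Kif5a 26.2% and 15.0%. Over Map1a, Map1b, Map2, Map4 and Mapt together, Map1b averaged 34.3% in noCRS and 67.0% in CRS, and Mapt 34.2% and 15.3%. A share falls when another member rises, so these values restate the levels above on a common scale per length. Sequence shared between near-identical tubulins affects the tubulin shares most.

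**Figure D4:**
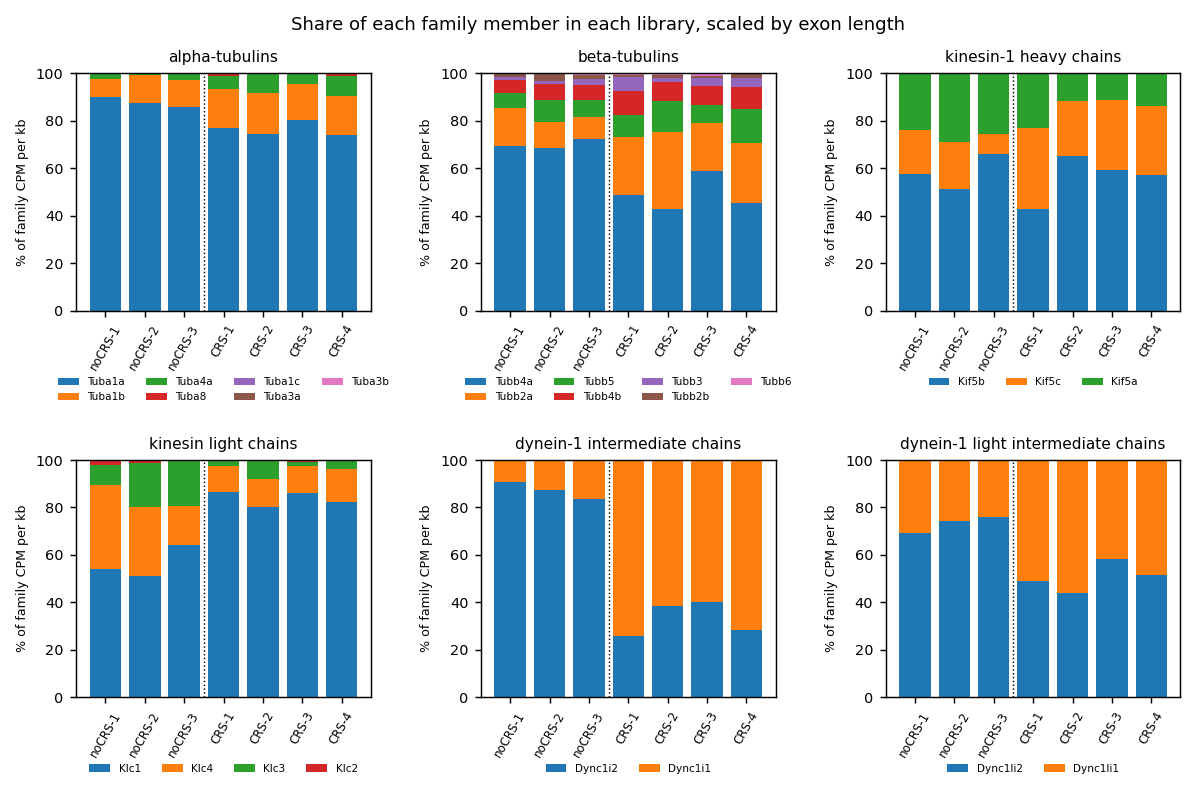
Stacked bars give, for each of the 7 libraries, the percent of the family's summed CPM per kilobase of exon that each gene holds, for alpha-tubulins, beta-tubulins, kinesin-1 heavy chains, kinesin light chains and the dynein-1 intermediate and light intermediate chains. In the intermediate chain panel Dync1i1 fills 9.33% to 16.2% of the noCRS bars and 59.6% to 74.2% of the CRS bars.

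Genes that work with these proteins were counted from 7 further lists: tubulin folding cofactors, tubulin-modifying enzymes, dynactin and dynein regulators, motor cargo adaptors, plus-end proteins, severing and minus-end proteins, and other microtubule-associated proteins with their kinases. Of 146 tested genes on these lists 3 were higher by edgeR, which is 2.05% and close to the 2.07% of all genes. By edgeR 0 were lower, with 3 at an unadjusted p under 0.05 in that direction, 2 called lower by DESeq2 and 0 by limma-voom. The median log2 fold change over the lists was 0.19, or 0.03 when scaled by library totals alone. The 3 genes were Map9, Sybu and Dctn3.

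Map9, which stabilises microtubules of the spindle and of neurites, measured 5.19, 13.8 and 7.95 CPM in noCRS and 57.6, 45.3, 62.5 and 45.0 CPM in CRS. No library overlapped, and the log2 fold change was 2.55 ± 0.40 (edgeR adjusted p = 0.0186). Leaving out noCRS replicate 3 (0.0807) or CRS replicate 1, 3 or 4 (0.0550, 0.0605 and 0.0524) ended that call. Sybu, whose product syntabulin links kinesin-1 to axonal cargo, measured 63.1, 56.4 and 71.7 CPM in noCRS and 143, 150.1, 116 and 154 CPM in CRS. Again the groups were apart, with a log2 fold change of 1.14 ± 0.18 (edgeR adjusted p = 0.0202), and leaving out any 1 noCRS library or CRS replicate 1 or 4 ended the call (at most 0.104). Dctn3, a subunit of the dynactin shoulder, measured 156, 121 and 131 CPM in noCRS and 264, 214, 222 and 231 CPM in CRS. Its log2 fold change of 0.77 ± 0.16 had an edgeR adjusted p of 0.0479, which was lost when any single library was left out (up to 0.198). The lists of dynactin and dynein regulators (24 tested), cargo adaptors (23) and other microtubule-associated proteins (22) each held 1 of these genes. Among the dynactin and dynein regulators 9 had an unadjusted p under 0.05, 7 higher and 2 lower (37.5%, against 13.6% of all genes). DESeq2 called 4 of them and limma-voom 1. The cargo adaptors had 4 at that p (17.4%) and the other microtubule-associated proteins 4 (18.2%), each with 2 called by DESeq2 and 1 by limma-voom. The 21 tubulin folding cofactors, chaperonin subunits among them, had 19 fold changes above 0 (90.5%, against 49.2% of all genes) and a median of 0.25, or 0.09 when scaled by library totals alone. Of them edgeR called 0, with 3 at an unadjusted p under 0.05 (14.3%, against 13.6% of all genes), 1 called by DESeq2 and 0 by limma-voom. Of the 21 tubulin-modifying enzymes tested edgeR called 0, with 1 at an unadjusted p under 0.05 (4.76%), 1 called by DESeq2 and 0 by limma-voom. Of the 17 severing and minus-end proteins edgeR also called 0, with 3 at that p (17.6%), 1 called by DESeq2 and 0 by limma-voom. The 18 plus-end proteins had 12 of 18 below 0 and a median of -0.24. Among them edgeR called 0, with 2 at an unadjusted p under 0.05 (11.1%), 1 called by DESeq2 and 0 by limma-voom.

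Promoter windows of 300 bases (250 before to 50 after the gene start, RefSeq on GRCm38.p6) were matched for 66 of the 84 genes, including all 7 called. Those of Dync1i1, Klc1 and Tubb2a are shown, as the called gene with the largest difference and the 2 called genes whose windows hold a cAMP response element. They lie at chr6:5725389-5725688 (plus strand), chr12:111758618-111758917 (plus) and chr13:34077959-34078258 (minus), and capitals mark matches, on either strand, to TGACGTCA (the cAMP response element), GGGCGG (the GC box) and TATAAA (the TATA box).
Dync1i1: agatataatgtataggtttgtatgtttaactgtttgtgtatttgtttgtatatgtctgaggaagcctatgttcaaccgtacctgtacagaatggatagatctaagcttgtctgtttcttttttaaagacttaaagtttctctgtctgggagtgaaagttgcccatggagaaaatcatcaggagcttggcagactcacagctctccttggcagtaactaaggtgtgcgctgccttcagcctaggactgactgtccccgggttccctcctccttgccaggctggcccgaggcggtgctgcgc
Klc1: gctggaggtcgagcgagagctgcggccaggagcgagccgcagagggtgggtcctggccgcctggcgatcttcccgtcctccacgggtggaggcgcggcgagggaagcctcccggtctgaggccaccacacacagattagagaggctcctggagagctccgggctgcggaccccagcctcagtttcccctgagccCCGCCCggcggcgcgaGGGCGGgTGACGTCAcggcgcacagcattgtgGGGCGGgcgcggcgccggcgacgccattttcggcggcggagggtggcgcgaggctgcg
Tubb2a: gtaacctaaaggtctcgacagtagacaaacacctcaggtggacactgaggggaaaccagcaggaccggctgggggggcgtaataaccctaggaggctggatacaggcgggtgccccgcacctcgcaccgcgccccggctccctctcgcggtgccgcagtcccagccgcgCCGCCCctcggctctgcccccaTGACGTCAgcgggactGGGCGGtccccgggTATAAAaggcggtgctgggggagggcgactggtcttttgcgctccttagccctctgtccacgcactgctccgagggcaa
The element TGACGTCA was present in 2 of the 7 windows of called genes, in 5 of 75 windows of all matched members (6.67%) and in 1.79% of all 32851 windows. The other 3 member windows with it belonged to Kif5c, Kif17 and Kif18a. The GC box GGGCGG was present in 6 of the 7 windows, all but that of Dync1i1, in 66.7% of the member windows and in 35.7% of all windows. TATAAA was present in 2 of the 7, Map1b and Tubb2a, and in 13.6% of all windows. TGANTCA, the AP-1 site, was present in 0 of the 7, in 1 of the 75 member windows and in 7.81% of all windows. The window of Dync1i1 held none of the 4 motifs. A match describes letters in the window, and no binding was measured.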

How the data were processed

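Total RNA of 7 libraries was measured. The authors' deposited table holds whole-number counts per gene with exon coordinates and exon lengths. Per the submitters' processing notes the tools were FastQC, HISAT, HISAT2, featureCounts and DESeq2 and the build was GRCm38; the column names end as STAR output does, so the aligner was not settled. Per the labels' protocols the library kit was a transposase kit, and strand is not marked. How reads with several alignments were counted was not given in the sources used here.

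From the deposited counts, genes were filtered with filterByExpr, normalised by TMM and tested by edgeR 4.0.16 in R 4.3.3 (quasi-likelihood test, no covariate), with Benjamini-Hochberg adjustment over all 17833 genes and a threshold of 0.05. Standard errors were the log2 fold change over the root of F. DESeq2 1.42.0, limma 3.58.1 (weighted voom), RLE factors, library totals alone, 2 further filters on low counts, a replicate block and removal of each library were the alternatives. The script was tested on simulated data. CPM were computed here from the deposited counts. Shared 50-base stretches and coding identity came from GENCODE M21 transcripts, aligned with Biopython 1.88. Of the 84 members, 22 share over 10% of their 50-base stretches with another gene and 12 share over 10% of exon length.

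No pair of libraries was a duplicate (chi-square per gene at least 99.4). Same-numbered replicates across the groups did not deviate together. The members and lists were chosen with earlier results of these data known. Named genes were every called member, the member of smallest p and the 2 most abundant in each role group, up to 3 called genes of each further list, and a set of widely studied tubulins, motors and microtubule-associated proteins. Other members named with values were chosen after their values were seen.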

Additional observations from a re-analysis of the deposited data

Results flagged for a closer look

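Kif24, a kinesin tested but not called, had 4.59 CPM in CRS replicate 1 while the other CRS libraries ranged from 0.0330 to 0.343 CPM, and that library was singled out because its gap to the nearest of the others, over the range of the group, was 0.932. Among 77 genes examined in this way in the 4 CRS libraries, 1 had a library so far apart. A nominal rate of about 1 in 20 by chance was not checked for counts this low and uneven. In noCRS Kif24 was uneven too, at 0.0241, 2.54 and 0.0924 CPM.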

How the results depend on the processing

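Over single named genes and settings, 497 values kept the direction and the side of the threshold, 51 took a call below the threshold, 8 brought a gene past it, and 43 changed sign, all of them in genes that had not passed. The members called numbered 7 by edgeR and 17 by DESeq2, 9 by limma-voom and 6 or 7 under other scalings and filters, and they ranged from 3 to 6 when 1 library was left out. Over all genes edgeR called 410, DESeq2 1626 and limma-voom 639, and leaving out 1 library gave 142 to 352. On the further lists edgeR called 3 and DESeq2 12, and leaving out 1 library gave 0 to 2. Calls over all genes were 90% higher in CRS by edgeR and 79.5% higher when scaled by library totals alone. Replicate numbers are shared between the groups, but deviations of same-numbered libraries correlated at -0.003 to 0.023, so the numbers are not shown to pair libraries. With the replicate number as a block edgeR called 0 members, 12 genes in all and 0 on the further lists; the adjusted p was 0.0562 for Dync1i1, 0.0661 for Map1b and 0.102 for Klc1. The log2 fold changes that changed sign were as follows. Scaled by library totals alone, they were -0.13 for Tuba1a, -0.15 for Dynll2, -0.11 for Dync1li2 and -0.03 for Kif2a. By RLE factors, Tuba1a and Dynll2 were both at -0.01, and by limma-voom they were -0.04 and -0.20. By DESeq2 and the stricter filter both rounded to 0. With the replicate block, the values were 0.02 for Dync1h1, -0.07 for Dync1li2, -0.17 for Kif2a, 0.10 for Map1a and 0.03 for Tubg1. When 1 library was left out, the range was -0.72 to 0.09 for Dcx, -0.28 to 0.20 for Dync1h1, -0.12 to 0.22 for Dync1li2, -0.26 to 0.15 for Dynll2, -0.12 to 0.34 for Kif2a, -0.10 to 0.56 for Kif3c and -0.34 to 0.16 for Map1a. Those of Map2, Map6, Mapt, Tuba1a and Tubg1 were -0.26 to 0.08, -0.76 to 0.08, -0.29 to 0.01, -0.18 to 0.11 and -0.29 to 0.04. The cause of these changes was not tested. At these depths the floor of 3 counts limits the kinesins that were near 0 in noCRS.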

Other observations

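The -ps rows left out by symbol held few counts. Over all 7 libraries Tubb4b-ps1 had 204 counts, Dynlt1-ps1 157, Tubb4b-ps2 64 and Tubb2a-ps2 24, while Kif22-ps and Kif4-ps had 0. For comparison, Tubb2a had 3619 to 16757 counts per library.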
